A study of Rattus norvegicus with 12 samples.

Results

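The miR-99/100 and miR-125 miRs were followed in serum extracellular vesicles (EVs) of rats with an injured Achilles tendon. The group was defined by name as the guide strands rno-miR-99a-5p, rno-miR-99b-5p, rno-miR-100-5p, rno-miR-125a-5p and rno-miR-125b-5p, which are 5 of the 426 miRs in the count table, and the choice was made with earlier results of these data known. Female Wistar rats, 12 weeks old and wild type per the labels, all underwent needle injury of the left Achilles tendon. They then received daily intraperitoneal rapamycin at 2 mg per kg or volume-matched vehicle, and sera were collected at day 7, after 5 injections, or at day 21, after 19 injections. The 4 groups, rapamycin or vehicle at day 7 or day 21, had 3 libraries each from different animals, and none was left uninjured. The labels call the tissue tendon, whereas the design text and methods describe EVs from serum, so the values concern circulating miRs. EVs in serum come from many cell types, and a change in the number of EVs from a source and a change in the miR content of each EV cannot be told apart. The paper cautions that size exclusion alone may not be enough to isolate EVs, and the EVs were not fully characterised. A change in miRs carried outside EVs cannot be told apart from these either.

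miRs of the miR-99/100 family are known to act on the mRNA of mTOR, the kinase that rapamycin inhibits, and on components of the insulin and IGF pathway that feeds it. miRs of the miR-125 family, the vertebrate relatives of lin-4, act on many mRNAs for growth control, differentiation and inflammation. In vertebrate genomes the families lie side by side with a let-7 gene between them, in clusters transcribed as long precursors. Each hairpin precursor yields a guide strand, which is loaded into an Argonaute protein, and a passenger strand, most of which is lost. A guide recognises its targets mainly through the seed, bases 2 to 8.

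Mature sequences were found in RefSeq (GRCr8) for 4 of the 5 members. They are shown with the seed in capitals because the seed divides the members into 2 families.
rno-miR-99b-5p: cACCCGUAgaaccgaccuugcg
rno-miR-100-5p: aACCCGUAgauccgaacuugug
rno-miR-125a-5p: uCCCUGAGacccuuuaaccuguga
rno-miR-125b-5p: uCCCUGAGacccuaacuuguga
The seed ACCCGUA was shared by rno-miR-99b-5p and rno-miR-100-5p, and CCCUGAG by rno-miR-125a-5p and rno-miR-125b-5p. Counting from 1 at the 5′ end, rno-miR-99b-5p differed from rno-miR-100-5p by 4 substitutions, A1C, U11A, A16C and U21C. rno-miR-125a-5p and rno-miR-125b-5p shared their first 13 bases and then diverged, with lengths of 24 and 22 bases. Among other miRs of the count table with a RefSeq sequence, only rno-miR-351-5p carried either seed (CCCUGAG). rno-miR-99a-5p belongs to the same family as rno-miR-100-5p and is very close to it in sequence. Because mapping tolerated a mismatch, the division of reads between close relatives is uncertain.

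The GRCr8 annotation placed the precursors in 3 clusters. Mir99a, Mirlet7c1 and Mir125b2 lay on chromosome 11 within the span of the lncRNA gene LOC103693508. Mir100, Mirlet7a-2 and Mir125b1 lay on chromosome 8 within the spans of Mir100hgl and Lnc215. Mir99b, Mirlet7e and Mir125a lay on chromosome 1 within the span of Spaca6. Mature rno-miR-125b-5p can arise from chromosome 11 or chromosome 8, so its level cannot be assigned to either cluster. Likewise rno-let-7c-5p can arise from Mirlet7c1 or from Mirlet7c2 on chromosome 7, outside the clusters.

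The study's table of read classes lists 10 of the 12 libraries. The others, rapamycin day 7 replicate 2 and vehicle day 7 replicate 1, stood apart, and each comparison is given for the 10 listed libraries first and for all 12 after it. Listed libraries held 16327 to 51391 miR counts, and the unlisted ones 51431 and 95834. Synthetic calibrator RNA had been added to every sample, and miR counts per calibrator count were 0.686 to 1.58 in the listed libraries against 5.53 and 12.8 in the unlisted ones. A level of 3 counts, used here as the lowest level the depth can show, was 58.4 to 184 plain CPM in the listed libraries, where plain CPM are counts per 1000000 miR counts of a library without further scaling.

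The members were a minor share of the miR counts, and rno-miR-99a-5p was the largest part of it in 11 of 12 libraries. Together they took 0.418 to 2.53% of the miR counts in the listed libraries, with a median of 1.12%. In the unlisted libraries they took 4.89% (95% Wilson interval 4.71 to 5.08) with rapamycin and 4.77% (4.64 to 4.91) with vehicle. Both unlisted shares lay above every listed one, and the intervals cover counting error only.

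**Figure D1:**
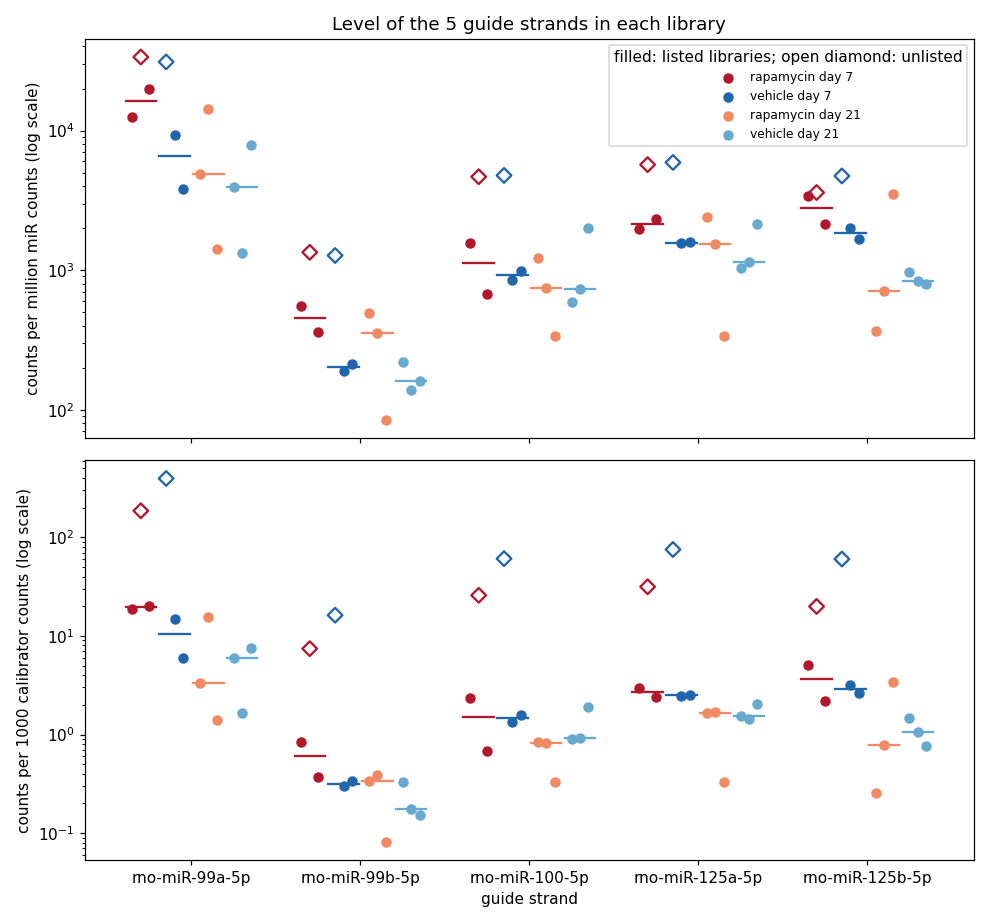
Level of each guide strand in each of the 12 libraries, in plain CPM (top) and per 1000 calibrator counts (bottom), both on log scales. Filled points are listed libraries, horizontal lines their group medians, and open diamonds the unlisted day 7 libraries. rno-miR-99a-5p was the highest of the 5 in 11 of 12 libraries, and the open diamonds sit above every filled point of the same miR on both scales.

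rno-miR-99a-5p varied more than any other member, with an SD of 1.40 on the log2 scale over all 12 libraries against 0.93 to 1.03 for the others. In plain CPM it stood at 12568 and 19772 in the listed rapamycin libraries of day 7 and at 9358 and 3794 in the listed vehicle libraries of day 7. At day 21 it stood at 4900, 14250 and 1427 with rapamycin and at 3922, 1324 and 7870 with vehicle. The treatments did not overlap in the listed libraries of day 7 and overlapped widely at day 21. The unlisted libraries held 33618 with rapamycin and 31022 with vehicle, so that day 7 overlapped once they were included. These levels rest on 34 to 442 counts in the listed libraries and on 1729 and 2973 in the unlisted ones.

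rno-miR-100-5p, which shares its family, was far less abundant. At day 7 its level was 1567 and 671 plain CPM with rapamycin and 849 and 992 with vehicle. The day 21 levels were 1225, 748 and 336 with rapamycin, and for vehicle they were 591, 732 and 1997. The treatments overlapped at both timepoints, and the unlisted libraries held 4666 with rapamycin and 4769 with vehicle. The ratio of rno-miR-99a-5p to rno-miR-100-5p ran from 1.81 in vehicle day 21 replicate 2 to 29.5 in rapamycin day 7 replicate 3.

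rno-miR-99b-5p, the third member of the family, was the least abundant member in 11 of 12 libraries. It held 553 and 358 plain CPM with rapamycin and 189 and 214 with vehicle in the listed libraries of day 7. Its day 21 levels were 490, 352 and 84.0 with rapamycin, and for vehicle they were 218, 139 and 160. The day 7 groups did not overlap, but every listed library rested on only 2 to 18 counts. The unlisted libraries held 1342 with rapamycin and 1273 with vehicle.

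rno-miR-125a-5p, the partner of rno-miR-99b-5p on chromosome 1, held a narrow range at day 7. It stood at 1967 and 2326 plain CPM with rapamycin and at 1556 and 1596 with vehicle in the listed libraries of day 7. Levels of 2389, 1539 and 336 with rapamycin and of 1027, 1150 and 2157 with vehicle were found at day 21. rapamycin day 21 replicate 3 was the lowest library of all, with 8 counts. The unlisted libraries held 5697 with rapamycin and 5906 with vehicle.

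rno-miR-125b-5p was at its highest, among the listed libraries, in that same library. It stood at 3380 and 2147 plain CPM with rapamycin and at 2004 and 1673 with vehicle in the listed libraries of day 7. By day 21 the levels were 367, 704 and 3484 with rapamycin, and for vehicle they were 965, 836 and 799. rapamycin day 21 replicate 3 lay within the range of all 6 day 7 libraries, and the other 5 libraries of day 21 all lay below that range. The unlisted libraries held 3597 with rapamycin and 4727 with vehicle.

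The order of the members was nearly fixed at its ends and loose in its middle. rno-miR-99a-5p exceeded rno-miR-125a-5p, rno-miR-100-5p and rno-miR-99b-5p in 12 of 12 libraries and rno-miR-125b-5p in 11. rno-miR-125a-5p exceeded rno-miR-100-5p in 11 libraries and equalled it in 1. rno-miR-125a-5p and rno-miR-125b-5p did not differ beyond their spread, since the first was higher in 8 libraries and the second in 4, with a mean log2 ratio of 0.19 ± 1.45 (SD, n = 12). rno-miR-100-5p and rno-miR-125b-5p did not differ beyond their spread either, with a mean log2 ratio of -0.46 ± 1.36 (SD, n = 12). The ligation of adapters favours some sequences, so the order is one of counts in these libraries.

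rapamycin day 21 replicate 3 was the exception in the make-up of the group. There rno-miR-125b-5p supplied 61.5% of the 5 members' counts and rno-miR-99a-5p 25.2%. Elsewhere rno-miR-125b-5p supplied 3.92 to 20.2% and rno-miR-99a-5p 31.7 to 81.0%. The ratio of rno-miR-125b-5p to rno-miR-99a-5p was 2.44 in that library and 0.0494 to 0.632 in the other 11.

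**Figure D2:**
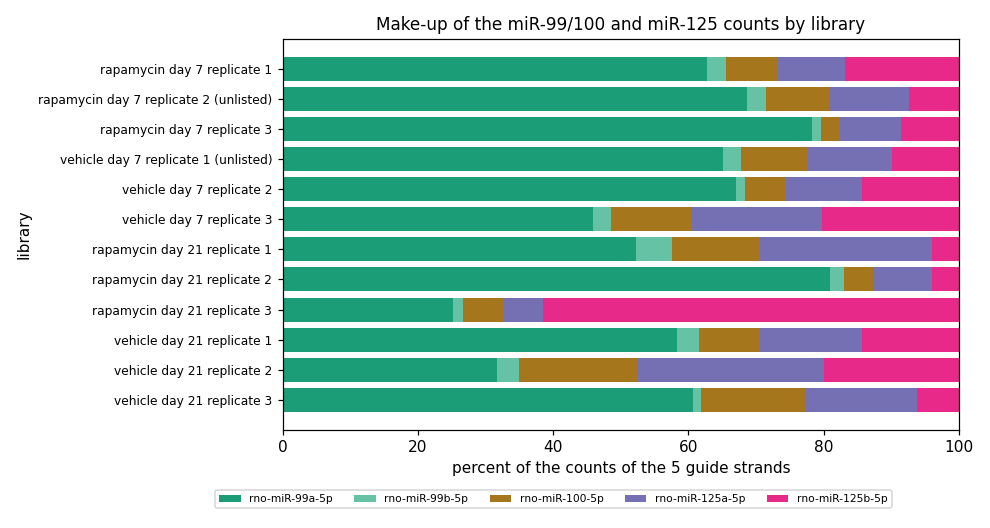
Share of each guide strand in the summed counts of the 5, in percent, for each of the 12 libraries (1 bar a library). rno-miR-99a-5p is the largest segment in 11 libraries, and rno-miR-125b-5p is the largest, at 61.5%, in rapamycin day 21 replicate 3.

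Rapamycin was compared with vehicle over both timepoints to ask for a general effect of the mTOR inhibitor. Scaled over the listed libraries, rno-miR-99a-5p averaged 9910 ± 6643 TMM-scaled CPM (SD, n = 5) with rapamycin and 5282 ± 3156 (n = 5) with vehicle. With timepoint as a blocking factor, rno-miR-99a-5p was higher with rapamycin by a log2 fold change of 0.86 (SE 0.26, edgeR quasi-likelihood test, adjusted p = 0.0395). No other member was called, against 7 of 365 miRs called in all (1.92%). The exact permutation test of its log2 CPM, with labels permuted within timepoint, gave a difference of 0.83 and p = 0.233 (two-sided, unadjusted, 5 members tested), where 120 arrangements allow a p of 0.0167. Over all 12 libraries the log2 fold change was 0.53 (SE 0.33, adjusted p = 0.696) and the permutation p was 0.41, so the call did not hold with the unlisted libraries. It also did not hold by DESeq2 (0.90, SE 0.52, adjusted p = 0.998), or in edgeR when only miRs with 10 counts or more in each listed library were fitted (0.89, SE 0.47, adjusted p = 0.271).

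In the same libraries 1 miR of the striated muscle list was called with treatment, while the list as a whole was divided. The muscle list, 4 of whose 8 miRs could be fitted there, summed to 1260, 358, 0, 1979 and 42.0 plain CPM with rapamycin and to 141, 234, 62.3, 34.8 and 599 with vehicle. The treatments overlapped widely. rno-miR-133a-3p, a muscle miR with 0 to 45 counts, was the one of these called, at 2.19 (SE 0.55, adjusted p = 0.00481 by edgeR). It was not called by DESeq2 (2.07, SE 1.00, adjusted p = 0.998). In all 12 libraries its difference was -0.88 (SE 0.47), and it was too low in abundance there to have an adjusted p. Without rapamycin day 21 replicate 2 its difference in the listed libraries was 1.39 (SE 0.62). Of the 4 miRs fitted in the listed libraries, 2 lay above 0 and 2 below, and in all 12 libraries 5 of 7 lay below 0. The part of striated muscle in the difference in rno-miR-99a-5p was not tested.

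The other members did not pass the test over both timepoints. rno-miR-99b-5p averaged 350 ± 167 CPM (SD, n = 5) with rapamycin and 188 ± 37.8 (n = 5) with vehicle, a fitted log2 difference of 0.89 (SE 0.59, adjusted p = 0.431 by edgeR). rno-miR-125b-5p averaged 2017 ± 1550 and 1282 ± 549 CPM, with a log2 difference of 0.68 (SE 0.36, adjusted p = 0.305 by edgeR). For rno-miR-125b-5p that difference rested on 1 library, as it was 0.03 without rapamycin day 21 replicate 3. rno-miR-125a-5p at 1630 ± 784 and 1518 ± 391 CPM and rno-miR-100-5p at 873 ± 446 and 1041 ± 516 CPM had log2 differences of 0.09 (SE 0.36) and -0.19 (SE 0.41). The smallest permutation p among these 4 was 0.117, for rno-miR-99b-5p. Over the 5 members the median log2 fold change was 0.68, against 0.04 over all 365 miRs fitted. In all 12 libraries no member was called or had an unadjusted p under 0.05 by edgeR, and 2 of 426 miRs were called (0.469%). Only 26 of those 426, and 1 of the 5 members, lay above the abundance cutoff of the test and had an adjusted p, so the other members could not be called.

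At day 7 the listed libraries allowed 2 animals against 2. Levels in plain CPM did not overlap between treatments for 4 of the 5 members, all higher with rapamycin, and the exception was rno-miR-100-5p. Of 164 miRs with a mean of at least 5 counts, 52.4% did not overlap either, so 4 of 5 is to be read against that share. rno-miR-99a-5p averaged 14927 ± 4622 CPM (SD, n = 2) with rapamycin and 6633 ± 3816 (n = 2) with vehicle, a log2 fold change of 1.17 (SE 0.41, edgeR, adjusted p = 0.0492). It was the only member called at day 7, with 7 of 365 miRs called (1.92%). Only 70 of the 365, and 3 of the 5 members, lay above the abundance cutoff of the test and had an adjusted p. By DESeq2 the difference was 1.32 (SE 0.82) and was not called. Over all 12 libraries none of the 5 members stayed apart at day 7, where 3.52% of 199 miRs did. The log2 fold change of rno-miR-99a-5p was then 0.56 (SE 0.48, adjusted p = 0.995). No member was called or had an unadjusted p under 0.05 by edgeR, against 3 of 426 miRs called (0.704%).

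Other markers moved at day 7 in the listed libraries as well. The liver list (rno-miR-122-5p, rno-miR-192-5p and rno-miR-194-5p) summed to 10079 and 10646 plain CPM with rapamycin and to 3677 and 3541 with vehicle. rno-miR-122-5p, the abundant hepatocyte miR, was called with a log2 fold change of 1.37 (SE 0.45, adjusted p = 0.0425 by edgeR), 1 of the 3 in the list. No liver miR was called at day 7 by DESeq2 or in all 12 libraries, where the difference in rno-miR-122-5p was 0.55 (SE 0.50) and the unlisted vehicle library held the highest liver sum, 13409. The leukocyte list of 5 miRs summed to 21142 and 18251 with rapamycin and to 30054 and 37730 with vehicle. Of that list only rno-miR-150-5p, a lymphocyte miR, was called, with a log2 fold change of -2.07 (SE 0.45, adjusted p = 0.000307 by edgeR). By DESeq2 0 of the 5 leukocyte miRs were called at day 7, and 1 had an unadjusted p under 0.05. In all 12 libraries 1 of the 5 was called as lower by edgeR. The part of the liver and leukocyte markers in the difference in rno-miR-99a-5p was not tested.

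At day 21, with 3 animals a group, no member was called. The treatments overlapped for all 5 members, where 10.7% of 131 miRs did not overlap. Log2 fold changes were 0.61 (SE 0.36) for rno-miR-99a-5p, 0.69 (SE 0.88) for rno-miR-99b-5p and 0.91 (SE 0.52) for rno-miR-125b-5p. They were -0.57 (SE 0.58) for rno-miR-100-5p and -0.11 (SE 0.51) for rno-miR-125a-5p. None of the 5 had an unadjusted p under 0.05 by edgeR or by DESeq2, and 1 of 365 miRs was called by edgeR (0.274%). Over all 12 libraries 0 of 426 miRs were called by edgeR, while 11 had an unadjusted p under 0.05. rno-miR-125b-5p at day 21 turned to -0.85 without rapamycin day 21 replicate 3, and rno-miR-99a-5p to -0.50 without rapamycin day 21 replicate 2.

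The treatment difference was not shown to depend on the timepoint for any member. The interaction (day 21 difference minus day 7 difference) was -0.56 (SE 0.54) for rno-miR-99a-5p and 0.43 (SE 0.72) for rno-miR-125b-5p. All 5 adjusted p-values were 0.9998 by edgeR, none had an unadjusted p under 0.05, and 1 of 365 miRs was called (0.274%). In all 12 libraries 1 of 426 was called (0.235%), and it was no member. The exception came without rapamycin day 21 replicate 2, where the interaction of rno-miR-99a-5p was called at -1.70 (adjusted p = 0.0175 by edgeR).

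**Figure D3:**
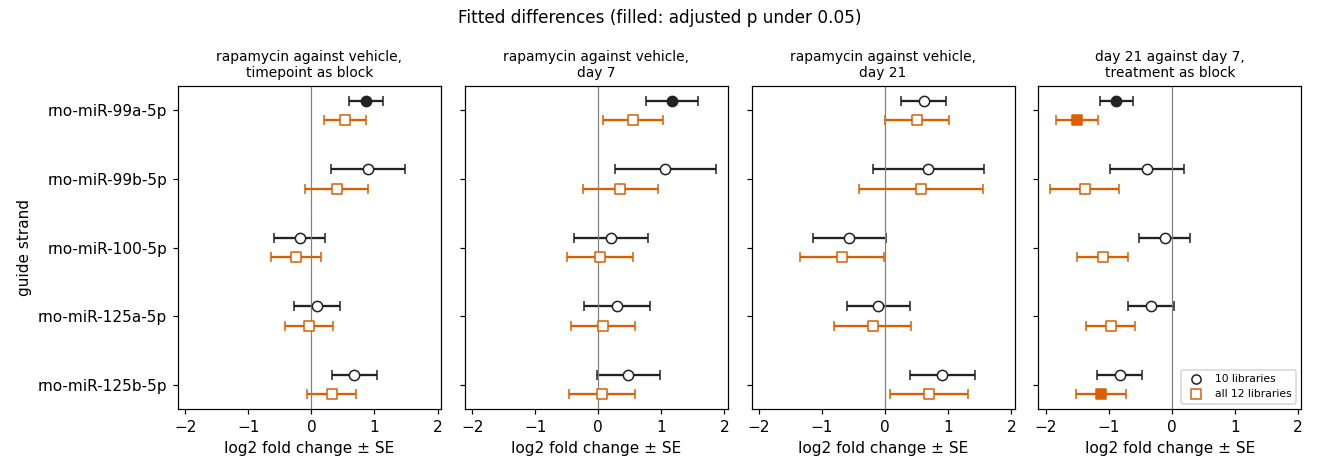
Fitted log2 fold change ± SE of each guide strand in 4 comparisons, for the 10 listed libraries (circles) and all 12 (squares). Filled symbols have an adjusted p under 0.05. For treatment over both timepoints and at day 7, rno-miR-99a-5p is filled in the 10 libraries and open in all 12. For treatment at day 21 every symbol is open, and in the comparison of timepoints every symbol lies below 0.

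The timepoints were compared to describe change with time after injury, with treatment as the blocking factor. The difference joins time after injury with the number of injections and the age of the animals, which cannot be told apart. rno-miR-99a-5p was lower at day 21, with 5473 ± 4418 CPM (SD, n = 6) against 10780 ± 5908 at day 7 (n = 4), and fell by 0.88 on the log2 scale (SE 0.26, adjusted p = 0.0238 by edgeR). It was the only member called, with 5 of 365 miRs called (1.37%). By DESeq2 the difference was -0.87 (SE 0.53, adjusted p = 0.993), not called. All 5 fitted differences lay below 0, with a median of -0.40 against -0.06 over all miRs fitted. rno-miR-125b-5p averaged 1275 ± 1332 CPM at day 21 and 2211 ± 628 at day 7, a log2 difference of -0.83 (SE 0.35, adjusted p = 0.261 by edgeR). Without rapamycin day 21 replicate 3 that difference was -1.49 and passed the test (adjusted p = 0.00711 by edgeR).

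Both unlisted libraries are of day 7, and with them every fitted difference lay further below 0. rno-miR-99a-5p had a log2 difference of -1.51 (SE 0.34, adjusted p = 0.000355 by edgeR), with 5688 ± 4549 CPM at day 21 against 16214 ± 8767 at day 7 (SD, n = 6 each). rno-miR-125b-5p had a log2 difference of -1.13 (SE 0.39, adjusted p = 0.0406 by edgeR). rno-miR-99b-5p at -1.39, rno-miR-100-5p at -1.10 and rno-miR-125a-5p at -0.97 had unadjusted p-values under 0.05 but adjusted p-values of 0.0671, 0.0569 and 0.0714. Thus 2 of 5 members were called where 26 of 426 miRs were (6.1%). Only 234 of the 426 lay above the abundance cutoff of the test and had an adjusted p, as all 5 members did. The median of the members was -1.13, against -0.55 over all miRs fitted.

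Exact permutation of the day labels within treatment gave p = 0.16 for rno-miR-99a-5p and 0.12 for rno-miR-125b-5p in the listed libraries, where 100 arrangements allow 0.01. In all 12 it gave 0.035 and 0.025 (two-sided, unadjusted, 5 members), where 400 arrangements allow 0.005, and 0.075 to 0.165 for the other 3. Markers of tissue differed between the timepoints too. The liver sum was 3541 to 10646 plain CPM in the listed libraries of day 7, and 10947 and 13409 in the unlisted ones. At day 21 it was 0 to 6072, and all 3 liver miRs were at 0 in rapamycin day 21 replicate 3. rno-miR-122-5p fell by 1.46 on the log2 scale in the listed libraries (SE 0.31, adjusted p = 0.00047 by edgeR). In the smooth muscle and fibroblast list 6 of 6 miRs lay below 0, with a median of -0.38 and 0 called in the listed libraries and of -1.01 and 1 called in all 12. The striated muscle list had 2 of 4 miRs below 0 and 0 called in the listed libraries, and 7 of 7 below 0 and 1 called in all 12. In the erythrocyte list 4 of 4 miRs lay above 0 in both, with medians of 0.41 and 0.77 and 0 called. Unadjusted p-values under 0.05 were found for 1, 0 and 1 miRs of these lists in the listed libraries and for 2, 2 and 3 in all 12, and DESeq2 called 0 in the listed libraries. The part of these markers in the members' change with time was not tested.

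Levels against the calibrator used no other miR. Per 1000 calibrator counts rno-miR-99a-5p stood at 18.9 and 20.3 with rapamycin and at 14.8 and 6.0 with vehicle in the listed libraries of day 7. The day 21 values were 3.36, 15.7 and 1.39 with rapamycin, and for vehicle they were 5.91, 1.66 and 7.52. The unlisted libraries held 186 and 396, so on this scale they lay far above all others. With the calibrator as library size, the treatment difference of rno-miR-99a-5p over both timepoints was 0.64 (SE 0.33, adjusted p = 0.388 by edgeR) and was not called. Over 75 miRs that reached 10 counts in each listed library, the median difference moved from 0.11 under TMM to -0.20 under the calibrator, and rno-miR-99a-5p lay above that median on both scales. On the calibrator scale, the change with time passed the test for rno-miR-99a-5p at -1.30 (adjusted p = 0.00331) and for rno-miR-125b-5p at -1.34 (adjusted p = 0.0177 by edgeR). There 15 of 365 miRs were called (4.11%), all 15 lower at day 21, and the median over all miRs fitted was -0.51 against -0.06 under TMM.

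The unlisted libraries also differed in markers of tissue. The striated muscle list, 7 of whose 8 miRs were in the table, summed to 1031 plain CPM in the rapamycin library and to 11082 in the vehicle library. The listed median was 187 and the listed maximum 1979, so only the vehicle library lay above the listed range. In that vehicle library rno-miR-133a-3p held 1026 counts, against 0 to 45 in the listed libraries. rno-miR-133b-3p and rno-miR-206-3p were at 0 in every listed library and held 26 and 1 counts in the unlisted vehicle library. rno-miR-1-3p held 2 counts there, against 0 to 5 in the listed libraries. The list for smooth muscle and fibroblasts summed to 42154 and 37440, above the listed maximum of 31879. The leukocyte list summed to 8575 and 5697, below the listed minimum of 14470, and the erythrocyte list to 47053 and 18156, below the listed minimum of 64372. The part of these differences in the higher level of the members was not tested.

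The let-7 miRs with a precursor in the clusters were examined next. Their sequences differ from each other by little, and the seed is again in capitals.
rno-let-7c-5p: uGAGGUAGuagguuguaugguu
rno-let-7a-5p: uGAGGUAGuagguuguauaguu
rno-let-7a-5p differs from rno-let-7c-5p by G19A, so the split of reads between them is uncertain. rno-let-7c-5p had 209 and 83 counts with rapamycin and 106 and 218 with vehicle in the listed libraries of day 7. At day 21 it had 21, 29 and 264 with rapamycin and 55, 39 and 61 with vehicle. rapamycin day 21 replicate 3 was thus high for rno-let-7c-5p, as it was for rno-miR-125b-5p, and low for rno-miR-99a-5p. The ratio of rno-let-7c-5p to rno-miR-99a-5p was 7.76 in that library and 0.0781 to 1.12 in the others.

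rno-let-7c-5p was called with rapamycin over both timepoints at 0.98 (SE 0.30, adjusted p = 0.0395 by edgeR) and at day 21 at 1.44 (SE 0.41, adjusted p = 0.049 by edgeR). Both calls rested on rapamycin day 21 replicate 3, without which the differences were -0.02 (SE 0.32) and -0.69 (SE 0.53). It was not called in all 12 libraries, nor by DESeq2 at day 21 (1.34, SE 0.70). rno-let-7a-5p had a log2 difference of -0.27 (SE 0.47) and rno-let-7e-5p of -0.24 (SE 0.76) over both timepoints, and neither was called. rno-let-7e-5p had 0 to 12 counts in the listed libraries and 38 and 82 in the unlisted ones.

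The profiles of the members were compared across all 12 libraries, as the root mean square (RMS) difference of log2 CPM after centring each miR. rno-miR-100-5p and rno-miR-125a-5p were the closest pair at 0.45, followed by rno-miR-99b-5p and rno-miR-125a-5p at 0.50. Among 74 candidates that reached 10 counts in each of the 12 libraries, none was closer to rno-miR-100-5p or to rno-miR-125a-5p than these are to each other. rno-miR-125b-5p was apart from the other members, at 1.18 to 1.44. Its nearest miR was rno-let-7c-5p at 0.67, against a median of 1.2 over the 74 candidates.

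Of the 5 members and the let-7 miRs of the clusters, only rno-miR-99a-5p and rno-let-7c-5p had enough counts to be candidates. Among the candidates, the nearest to the other members lay outside the clusters, an outcome that this count minimum largely fixed. For rno-miR-99a-5p they were rno-miR-23b-3p at 0.47, rno-miR-378a-3p at 0.64 and rno-miR-30a-5p at 0.68, with a median of 1.53 over 73 candidates. Of the candidates rno-miR-29c-3p was nearest to rno-miR-99b-5p at 0.41, to rno-miR-100-5p at 0.56 and to rno-miR-125a-5p at 0.46. rno-miR-100-5p and rno-miR-125a-5p, which were not candidates, were closer to each other at 0.45. rno-miR-27b-3p was among the nearest 3 candidates of rno-miR-99b-5p, rno-miR-100-5p and rno-miR-125a-5p. All profiles share the same libraries, including the unlisted ones with their high levels, and no test was made of likeness.

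**Figure D4:**
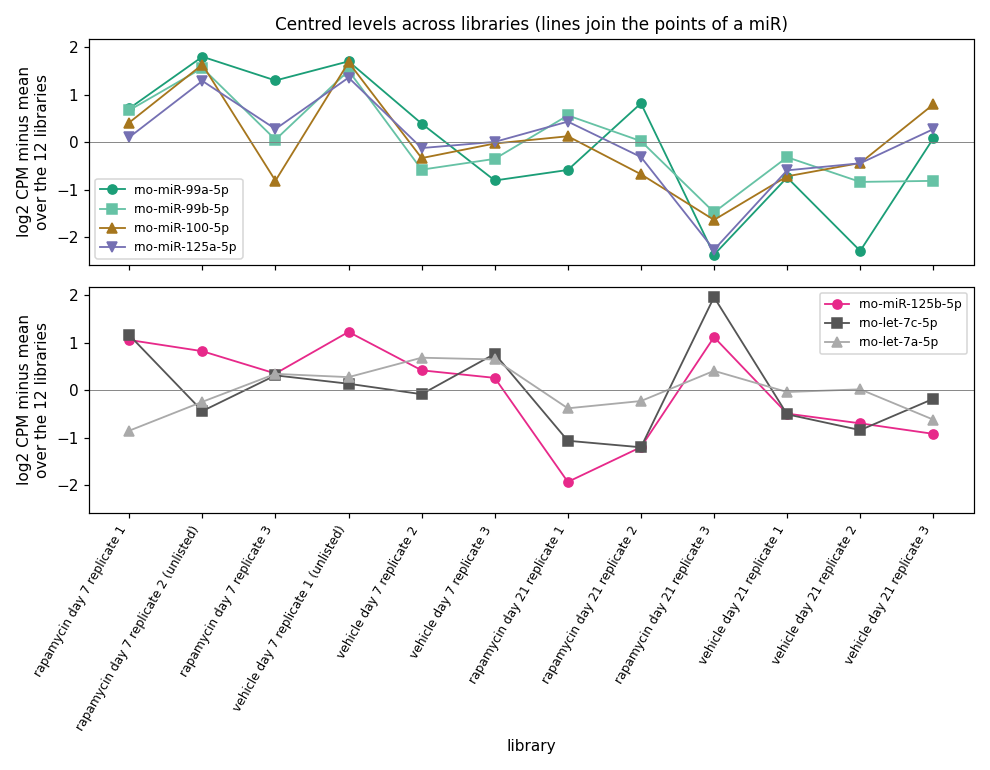
Centred log2 CPM (level minus the mean of the miR over the 12 libraries) by library, for 4 guide strands (top) and for rno-miR-125b-5p with rno-let-7c-5p and rno-let-7a-5p (bottom). Libraries are grouped by treatment and timepoint, and lines only join the points of a miR. In rapamycin day 21 replicate 3 the 4 top miRs are at their lowest while rno-miR-125b-5p and rno-let-7c-5p are high.

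Passenger strands were scarce, and their share of both arms differed between hairpins. Over all 12 libraries rno-miR-99a-3p made 0.316% of both arms (22 of its counts against 6944 of the guide) and rno-miR-100-3p 0.706%. rno-miR-125a-3p made 2.21%. The higher shares were those of rno-miR-99b-3p at 18.5%, with 61 counts against 269, and of rno-miR-125b-2-3p at 11.7% of its counts and those of rno-miR-125b-5p together. The passenger strands of miR-125b separate its hairpins, with 152 counts of rno-miR-125b-2-3p from chromosome 11 and 19 of rno-miR-125b-1-3p from chromosome 8. In the listed libraries alone they had 41 and 2 counts. None of the 6 passenger strands was called in any comparison by edgeR, in the 10 libraries or in all 12, or by DESeq2 in the 10. Many could not be called by edgeR, as they lay under its abundance cutoff. In the listed libraries 1 of the 6 had an adjusted p for treatment over both timepoints. At day 7, at day 21 and for the timepoint 0 did. In all 12, 0 had one for treatment over both timepoints or at day 7, and 3 for the timepoint. There 6 of 6 lay below 0 for the timepoint, with a median of -2.55 against -0.55 over all miRs fitted. Of these 2 had an unadjusted p under 0.05 by edgeR. In the listed libraries 1 of the 6 had an unadjusted p under 0.05 for treatment over both timepoints by edgeR and 0 for the timepoint, and 5 of them had a median of 0 or 1 count in the listed libraries.

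Relatives of the members in sequence were not called for treatment over both timepoints either. rno-miR-351-5p, with the miR-125 seed, had 0 to 18 counts in the listed libraries and a log2 difference with rapamycin of 0.50 (SE 0.59). rno-miR-10a-5p and rno-miR-10b-5p, which resemble the miR-99/100 family with a shifted or changed seed, had differences of -0.33 (SE 0.51) and -0.08 (SE 0.78).

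Other miRs known to act on mTOR, Rictor or their pathway formed a list of 10. Over both timepoints in the listed libraries 0 of the 10 were called by edgeR or by DESeq2, 1 had an unadjusted p under 0.05 by each, and 7 differences lay above 0 and 3 below, with a median of 0.26 against 0.04 over all miRs fitted. The largest in the well-counted range was rno-miR-101a-3p, which acts on mTOR mRNA, at 0.71 (SE 0.26, unadjusted p = 0.00599, adjusted p = 0.139 by edgeR). None of the 10 was called at day 7 or at day 21. In the comparison of timepoints over all 12 libraries, rno-miR-218a-5p, which acts on Rictor, was called as lower at day 21, at -3.80 (SE 0.80, adjusted p = 0.000135 by edgeR). It had 0 to 13 counts in the listed libraries and 74 and 86 in the unlisted ones, and it was not called in the listed libraries.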

How the data were processed

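Small RNA from serum EVs (size exclusion columns) was sequenced with added spike-in standards. The authors deposited raw read counts per mature miR and spike-in for 12 libraries, after trimming with cutadapt 3.3 and mapping with bowtie 1.3.0 and miRDeep2 to mRatBN7.2 and miRBase. The 10 spike-in rows (7 calibrators) were left out of miR totals. Reads carried no stated molecular identifiers, so intervals and floors cover counting error only. Sequences and neighbours come from RefSeq (GRCr8), and no coordinates are given because the builds differ.

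Differences were tested on the counts with edgeR 4.0.16 (quasi-likelihood F test, TMM, two-sided, R 4.3.3) over every miR with a count. Benjamini-Hochberg adjusted p-values followed the study's kind of abundance cutoff, the quantile from 0 to 0.95 in steps of 0.01 with the most calls, and the threshold was 0.05. An adjusted p was not available for a miR under that cutoff. In the listed libraries 186 of 365 miRs had one for treatment over both timepoints, 70 at day 7, 92 at day 21 and 132 for the timepoint. In all 12 libraries 26 of 426 miRs had one for treatment over both timepoints, 128 at day 7, 426 at day 21 and 234 for the timepoint. Percentages of miRs called are of all miRs fitted. Among miRs with an adjusted p the share was higher wherever the cutoff removed miRs. The 10 libraries listed in the study's read table were fitted together, then all 12. Exact permutation tests used log2 CPM with a prior count of 2. DESeq2 1.42.0, other scalings and filters, a replicate block and leaving out each listed library were alternatives, and the permutation over timepoints was added after the data were seen. The edgeR fit for treatment with timepoint as a block, without the abundance cutoff, was tested on simulated data. The abundance cutoff and the other comparisons were not simulated. miRs were named by a written rule: the members, their passenger strands, cluster neighbours, seed relatives, the 3 nearest profiles, and lists for the mTOR pathway and cell types. The members and lists were chosen with earlier results of these data known. Plain CPM are counts relative to the total of miR counts, and TMM-scaled CPM adjust that total by edgeR's factors. Each library is 1 animal.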

Additional observations from a re-analysis of the deposited data

Results flagged for a closer look

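rno-miR-99b-5p in vehicle day 7 replicate 1, an unlisted library, stood far from the other 5 vehicle libraries at 1022 CPM (TMM over all 12 libraries). Its gap to the next library was 0.778 of the whole range of the 6 log2 values, above Dixon's 95% critical value. This was 1 of 20 sets of values examined (5 members, 2 treatments, with 10 and with 12 libraries), and chance alone flags about 1 set in 20.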

How the results depend on the processing

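Values are log2 differences by edgeR unless another test is named, and the cause of each change was not tested. For treatment over both timepoints, rno-miR-99a-5p (0.86, called) was not called in all 12 libraries (0.53), with the calibrator as library size (0.64), with at least 10 counts in every library (0.89), without an abundance cutoff (0.86) or by DESeq2 (0.90). At day 7 (1.17, called) it was not called in all 12 (0.56), with RLE (1.32), the calibrator (0.92), the count minimum (1.10), no cutoff (1.17), DESeq2 (1.32) or legacy quasi-likelihood (1.17). For day 21 against day 7 (-0.88, called) it was not called with the count minimum (-0.86), no cutoff (-0.88) or DESeq2 (-0.87). rno-miR-125b-5p was called for the timepoint in all 12 (-1.13) and with the calibrator (-1.34). rno-miR-125a-5p (treatment, 0.09) turned to -0.040 in all 12 and -0.20 with the calibrator. The interaction of rno-miR-99b-5p (-0.37) turned to 0.22 in all 12. Permutation over timepoints passed 0.05 for rno-miR-99a-5p (-1.70) and rno-miR-125b-5p (-1.37) in all 12, and for rno-miR-125a-5p with the calibrator (-0.95, exact p = 0.03). With the calibrator in all 12 it passed for 4 members, rno-miR-99a-5p (-3.10, exact p = 0.015), rno-miR-99b-5p (-2.19, 0.03), rno-miR-125a-5p (-2.34, 0.005, the smallest possible) and rno-miR-125b-5p (-2.72, 0.01). The permutation was run for the members only, so no share over other miRs stands beside these results. The unlisted libraries, both of day 7, held 5.53 and 12.8 miR counts per calibrator count, against 0.686 to 1.58 in the listed ones. Whether the members moved further than other miRs on this scale in all 12 was not tested.

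The deviations of same-numbered animals from their group means were correlated across 74 miRs. The correlations were -0.50 to -0.02 over 4 pairs in the 10 libraries and -0.78 to 0.31 over 6 pairs in all 12. They cannot decide whether the numbers mark a pairing. The group means rest on only 2 or 3 libraries, and the unlisted libraries, which stood apart, carry different numbers. With a replicate block rno-miR-99a-5p was not called for treatment (0.91), at day 7 (1.68) or for the timepoint (-0.89), and calls over all miRs went from 7 to 2, from 7 to 1 and from 5 to 0. In all 12 with the replicate block it was 0.46 and 0.66 for treatment and at day 7. Under the replicate block rno-miR-100-5p at day 7 turned to -0.050 and the interaction of rno-miR-99b-5p to 0.14 (0.077 in all 12), and rno-miR-125a-5p for treatment to -0.055 in all 12.

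With each listed library left out in turn, a lone library is assumed to vary like the other groups. rno-miR-99a-5p ran from 0.46 to 1.18 for treatment and was called in 6 of 10 fits. The call ended without rapamycin day 7 replicate 3 (0.67), rapamycin day 21 replicate 2 (0.46), vehicle day 7 replicate 3 (0.60) or vehicle day 21 replicate 2 (0.67). At day 7 it ran from 0.68 to 1.98 and was called in 4 of 10 fits, and the call ended without rapamycin day 7 replicate 1 (1.47) or 3 (0.88), rapamycin day 21 replicate 3 (1.08), vehicle day 7 replicate 3 (0.68) or vehicle day 21 replicate 1 (1.2) or 2 (1.2). For the timepoint it ran from -1.34 to -0.65 and was called in 5 of 10, and the call ended without rapamycin day 7 replicate 3 (-0.76), rapamycin day 21 replicate 1 (-0.78) or 3 (-0.65), vehicle day 7 replicate 2 (-0.78) or vehicle day 21 replicate 2 (-0.81). At day 21 it ran from -0.50 to 1.16, and its interaction from -1.70 (called without rapamycin day 21 replicate 2) to -0.040. rno-miR-125b-5p ran from -0.85 to 1.32 at day 21, from -1.26 to 0.84 for the interaction and from -1.49 (called without rapamycin day 21 replicate 3) to -0.64 for the timepoint. rno-miR-100-5p ran from -0.63 to 0.13 for treatment, from -0.59 to 0.70 at day 7 and from -0.55 to 0.19 for the timepoint. rno-miR-125a-5p ran from -0.10 to 0.24 for treatment, from -0.63 to 0.28 at day 21 and from -0.93 to 0.065 for the interaction. The interaction of rno-miR-99b-5p ran from -0.78 to 0.031. At 2 to 18 listed counts, rno-miR-99b-5p is limited by depth.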
